A study of Mus musculus with 12 samples.

Results

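The CXCR3 axis comprised 4 genes of the deposited table, the chemokine genes Cxcl9, Cxcl10 and Cxcl11 and the gene of their shared receptor, Cxcr3, taken by gene name from 54532 annotated genes. They were measured by RNA-seq of whole mouse colon in 12 libraries, 1 per mouse, in 4 groups of 3. The groups were untreated and colitic Tmem173fl/fl mice, whose STING gene is flanked by loxP sites and intact, and untreated and colitic Tmem173iΔmye mice, which carry Tmem173fl/fl and also Lyz2-CreERT2, so that tamoxifen deletes STING in cells that express lysozyme M, mainly macrophages, monocytes and neutrophils. All groups, the controls included, had received 5 injections of tamoxifen, and the mice were 6 to 8 weeks old by the study's methods. The colitic mice drank dextran sodium sulfate (DSS), which injures the colonic epithelium, for 7 days and then water for 1 day. The labels call the genotypes WT and CRE, and replicates of colitic Tmem173iΔmye mice are numbered 1, 2 and 5.

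CXCL9, CXCL10 and CXCL11 are small chemokines that attract activated T cells of the Th1 type, cytotoxic T cells and NK cells, all of which carry CXCR3. Interferon-γ from those same cells induces the ligands in macrophages, dendritic cells, epithelium and endothelium. Cxcl10 also responds to type I interferons and to NF-κB, whereas Cxcl9 depends more narrowly on interferon-γ. In mice of the C57BL/6 family, to which the C57BL/6N background of the study belongs, Cxcl11 carries a frameshift and yields no functional protein, so that Cxcl9 and Cxcl10 are the working ligands there.

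Total counts per library ran from 13823237 to 18718915. Epithelial markers were abundant in all libraries, with summed levels of 3615 to 8361 FPKM (fragments scaled to transcript length and library size) over 8 genes. Tmem173 itself read 6.07 to 10.4 FPKM in untreated Tmem173fl/fl mice, 6.20 to 9.12 FPKM in untreated Tmem173iΔmye mice, 16.6 to 19.2 FPKM in colitic Tmem173fl/fl mice and 10.2 to 20.7 FPKM in colitic Tmem173iΔmye mice. Its genotype difference was not called in either state (log2 fold change -0.21 with adjusted p = 1.0 untreated, and -0.28 with adjusted p = 0.602 colitic, edgeR). Whole tissue includes the cells that keep the gene, and deletion within myeloid cells was not tested in these libraries. Transcripts of 8 genes of the exocrine pancreas took between 0.00969% and 1.03% of the counts of a library. Reads of the X-inactivation transcript Xist without reads of the Y-linked Ddx3y marked 3 libraries, untreated Tmem173fl/fl replicate 3, untreated Tmem173iΔmye replicate 3 and colitic Tmem173iΔmye replicate 5. This is the pattern of female mice, so that only the colitic Tmem173fl/fl group held none, and sex was unbalanced in every comparison with that group. In the libraries with Ddx3y reads alone, an alternative chosen after seeing the data, the changes of Cxcl9 and Cxcl10 with DSS in Tmem173fl/fl mice, given below, were -2.95 and -2.15 and were called, and that of Cxcl10 in Tmem173iΔmye mice was -1.15 and was not (edgeR adjusted p = 0.107).

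The 3 ligand genes lie together on mouse chromosome 5, all on the minus strand (GRCm38). Cxcl9 (ENSMUSG00000029417) spans chr5:92321347-92328079, Cxcl10 (ENSMUSG00000034855) chr5:92346638-92348889 and Cxcl11 (ENSMUSG00000060183) chr5:92359544-92365485. The start of Cxcl10 is 20.8 kb from that of Cxcl9, and the start of Cxcl11 a further 16.6 kb away. Cxcr3 (ENSMUSG00000050232) is on the X chromosome, at chrX:101731535-101734269 on the minus strand. Art3, on the plus strand, runs across Cxcl10 and Cxcl11, and its exons cover 133 of the 2252 exon bases of Cxcl10 (5.91%) and 0 of those of Cxcl9 and Cxcl11. The processed pseudogene Gm2673, also on the plus strand, covers 1582 of the 3794 exon bases of Cxcl11 (41.7%) and is listed at 0 counts in all 12 libraries. The library kit does not mark strand, so reads from these overlaps cannot be told apart between the genes.

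The 250 bases upstream of Cxcl9 and of Cxcl10 are printed to set the motifs of the working ligands side by side. They were read from RefSeq promoters of GRCm38.p6, chr5:92328080-92328329 for Cxcl9 and chr5:92348890-92349139 for Cxcl10, in the direction of transcription. Capitals mark exact matches on either strand to the core of the interferon-stimulated response element, GAAANNGAA, which is read by factors of the IRF family, and to the NF-κB consensus. That consensus was searched as GGGRNNYYCC, where R is A or G, Y is C or T and N is any base.
Cxcl9 promoter: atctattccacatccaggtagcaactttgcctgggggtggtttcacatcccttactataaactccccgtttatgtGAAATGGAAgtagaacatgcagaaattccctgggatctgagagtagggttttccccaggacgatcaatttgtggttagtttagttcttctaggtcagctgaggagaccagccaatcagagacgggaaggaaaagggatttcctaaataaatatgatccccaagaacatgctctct
Cxcl10 promoter: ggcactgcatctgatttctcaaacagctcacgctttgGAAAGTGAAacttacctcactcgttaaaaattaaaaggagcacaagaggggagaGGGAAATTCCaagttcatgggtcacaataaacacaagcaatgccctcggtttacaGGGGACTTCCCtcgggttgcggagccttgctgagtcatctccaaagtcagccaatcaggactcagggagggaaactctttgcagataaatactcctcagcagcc
Both promoters held 1 match to the interferon element, 175 to 167 bases before the start in Cxcl9 and 213 to 205 bases before it in Cxcl10. The Cxcl10 promoter also held NF-κB matches at 159 to 150 and, as 2 overlapping frames, at 104 to 95 and 103 to 94 bases before the start. The Cxcl9 window held no exact match to that consensus. Inexact matches were not searched in any window. The window of Cxcr3 held neither motif. The interferon-γ-activated sequence, searched as TTCNNNGAA, had no match in any of the 3 windows. Among 32851 RefSeq promoters of the same 250 bases, 7.13% held the interferon element, 7.25% the NF-κB consensus, 0.362% both and 7.02% the interferon-γ-activated sequence. The promoter table matched 3 of the 4 genes, without Cxcl11.

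For Cxcl11 the informative sequence is the coding part of its first exon, chr5:92363155-92363214, minus strand, from the start codon on. The annotation calls the gene a polymorphic pseudogene, a gene broken in the reference strain and intact in others, and models an intact reading frame by skipping 2 reference bases, chr5:92363177-92363178. These 2 bases are in capitals.
Cxcl11 reference: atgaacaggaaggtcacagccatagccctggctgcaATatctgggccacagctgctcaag
Cxcl11 with the bases skipped: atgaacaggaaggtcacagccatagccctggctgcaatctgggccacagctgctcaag
Read without a break, the reference reaches a stop at codon 37, after 36 codons. With the 2 bases skipped, the frame runs for 99 codons and stops at codon 100. The counts of Cxcl11 below therefore describe a transcript and no working chemokine.

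With DSS the transcripts of both working ligands fell in Tmem173fl/fl mice, Cxcl9 8.22-fold and Cxcl10 4.24-fold, while the receptor did not pass the test. In Tmem173iΔmye mice Cxcl10 fell 2.32-fold and Cxcl9 was 2.52-fold lower without passing the test. Ifng and most interferon-γ target genes also fell in Tmem173fl/fl mice, and most other CXC chemokines rose. A gene was called where edgeR's quasi-likelihood test gave an adjusted p under 0.05 and the log2 fold change was at least 1 in size, over 24102 tested genes. In whole colon, fewer cells of a type and less RNA per cell cannot be told apart.

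Cxcl9, the ligand most tied to interferon-γ, read 25.6, 15.6 and 24.4 FPKM in untreated Tmem173fl/fl replicates 1 to 3 and 17.6, 27.7 and 17.9 FPKM in untreated Tmem173iΔmye replicates 1 to 3. In colitic Tmem173fl/fl replicates 1 to 3 it read 0.817, 5.64 and 1.28 FPKM, from 45, 357 and 56 counts. In colitic Tmem173iΔmye replicates 1, 2 and 5 it read 6.18, 15.3 and 3.85 FPKM, from 262, 753 and 196 counts. Both colitic groups lay wholly below their untreated group, and in each colitic group replicate 2 was the highest. The fitted change with DSS was -3.04 ± 0.59 (log2, SE, n = 3 against 3, edgeR adjusted p = 0.00285) in Tmem173fl/fl mice and -1.33 ± 0.43 (edgeR adjusted p = 0.165) in Tmem173iΔmye mice. Without colitic Tmem173fl/fl replicate 2 the fall was -4.40 on the log2 scale, and without colitic Tmem173iΔmye replicate 2 the change in that genotype became -2.07 and was called (edgeR adjusted p = 0.0218).

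Cxcl10, which interferons of either type and NF-κB can induce, read 19.4, 7.84 and 11.7 FPKM in untreated Tmem173fl/fl replicates 1 to 3 and 8.92, 14.8 and 10.7 FPKM in untreated Tmem173iΔmye replicates 1 to 3. In colitic Tmem173fl/fl replicates 1 to 3 it read 1.39, 5.52 and 2.06 FPKM, from 57, 261 and 67 counts. In colitic Tmem173iΔmye replicates 1, 2 and 5 it read 5.65, 4.99 and 4.37 FPKM, from 179, 183 and 166 counts. Both colitic groups again lay wholly below their untreated group, and the 3 colitic Tmem173iΔmye mice were closely alike, unlike their Cxcl9. The fitted change with DSS was -2.08 ± 0.49 (log2, SE, edgeR adjusted p = 0.00815) in Tmem173fl/fl mice and -1.22 ± 0.25 (edgeR adjusted p = 0.0387) in Tmem173iΔmye mice. Without colitic Tmem173fl/fl replicate 2 the fall in that genotype was -2.93 on the log2 scale. The call in Tmem173iΔmye mice was lost in 5 of the 6 fits that left out 1 library, all but the fit without colitic replicate 5 (log2 -1.36 to -0.98 over the 6), and with limma in place of edgeR (adjusted p = 0.144).

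**Figure D1:**
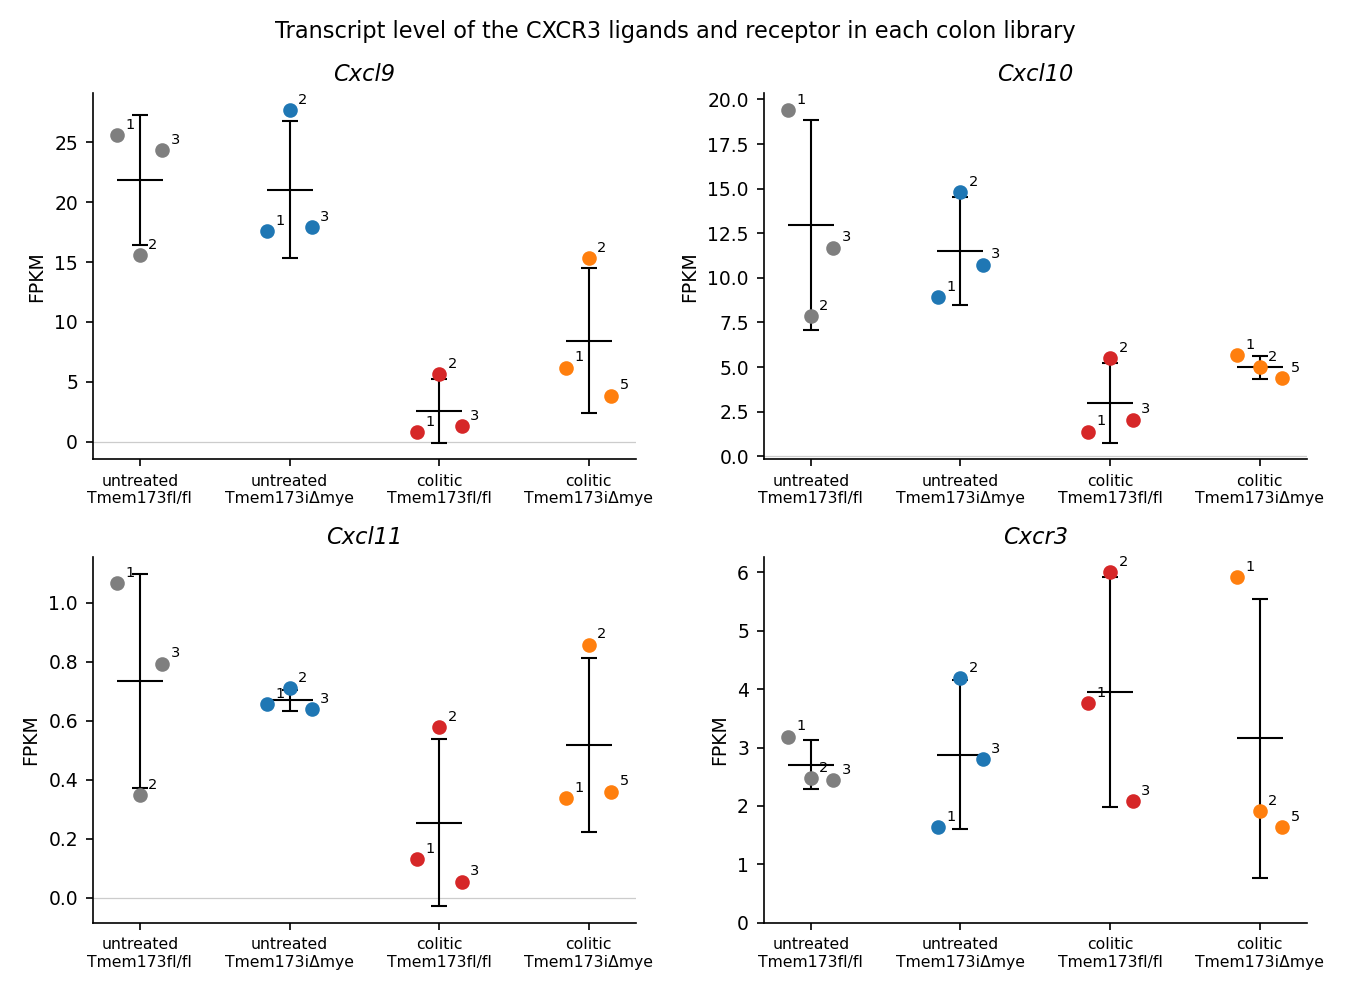
FPKM of each gene (linear axes, a scale per panel) in the 12 libraries, 1 numbered point per mouse, with the group mean (bar) and SD (n = 3). Every colitic point of Cxcl9 and Cxcl10 lies below every untreated point of its genotype, whereas colitic and untreated points overlap in each genotype for Cxcl11 and Cxcr3.

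Of the genes tested, 7.61% were called lower and 14.9% higher with DSS in Tmem173fl/fl mice, against 2 lower and 0 higher of the 4 members. In Tmem173iΔmye mice 0.597% of genes were called lower and 1.48% higher, against 1 lower and 0 higher of the 4. Groups that did not overlap, with every colitic library below every untreated one in FPKM, were found for 23.6% of tested genes in Tmem173fl/fl mice and for 9.25% in Tmem173iΔmye mice, and for 2 of the 4 members in each. Calls in the smaller comparison varied widely with the method, with 41 genes by limma and 1369 with a replicate block, against 501 here.

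Cxcl11 was the least abundant member and came close to the floor of counting, set at 3 counts. It gave 55, 20 and 49 counts in untreated Tmem173fl/fl replicates 1 to 3, 42, 46 and 41 in untreated Tmem173iΔmye replicates 1 to 3, 9, 46 and 3 in colitic Tmem173fl/fl replicates 1 to 3, and 18, 53 and 23 in colitic Tmem173iΔmye replicates 1, 2 and 5. These counts correspond to 0.0547 to 1.07 FPKM, and 11 of the 12 libraries reached the minimum of 0.1 FPKM. Of the exon bases of Cxcl11, 41.7% overlap Gm2673 on the other strand. The effect of that overlap on the counts and FPKM was not tested. Replicate 2 was the highest of both colitic groups here as for Cxcl9, and colitic and untreated libraries overlapped in each genotype. The lowest count, 3, has an exact 95% Poisson interval of 0.619 to 8.77, which covers counting error only. The fitted change with DSS was -1.45 ± 0.71 (log2, SE, edgeR adjusted p = 0.142) in Tmem173fl/fl mice and -0.38 ± 0.45 (edgeR adjusted p = 0.741) in Tmem173iΔmye mice. Without colitic Tmem173fl/fl replicate 2 the change was -2.93 and was called (edgeR adjusted p = 0.00409). In Tmem173iΔmye mice it was -0.93 without colitic replicate 2 and -0.14 without colitic replicate 1.

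Cxcr3, the receptor on T and NK cells, did not pass the test in any comparison. It read 3.19, 2.48 and 2.45 FPKM in untreated Tmem173fl/fl replicates 1 to 3 and 1.64, 4.19 and 2.80 FPKM in untreated Tmem173iΔmye replicates 1 to 3. In colitic mice it read 3.76, 6.001 and 2.08 FPKM in Tmem173fl/fl replicates 1 to 3 and 5.92, 1.91 and 1.64 FPKM in Tmem173iΔmye replicates 1, 2 and 5. The groups overlapped in every comparison, and the fitted change with DSS was 0.58 ± 0.36 (log2, SE, edgeR adjusted p = 0.251) in Tmem173fl/fl mice and 0.11 ± 0.52 (edgeR adjusted p = 0.952) in Tmem173iΔmye mice. In Tmem173fl/fl mice it was 0.11 without colitic replicate 2 and 0.86 without colitic replicate 3 (edgeR adjusted p = 0.0428), the latter still under the fold limit. The sign of the change in Tmem173iΔmye mice was not stable, since limma gave -0.013 and leaving out single libraries gave -0.70 to 0.49. The 2 highest values, in colitic Tmem173fl/fl replicate 2 and colitic Tmem173iΔmye replicate 1, came from libraries with 0.490% and 1.03% of counts from pancreas genes, and colitic Tmem173fl/fl replicate 1, with 0.903%, had the next highest value of the colitic mice. The 8 pancreas genes summed to 43.6 to 2257 FPKM in untreated Tmem173fl/fl mice, 49.5 to 1297 FPKM in untreated Tmem173iΔmye mice, 415.2 to 6684 FPKM in colitic Tmem173fl/fl mice and 75.6 to 7233 FPKM in colitic Tmem173iΔmye mice, with Prss1 at 0 in all untreated libraries. Untreated Tmem173fl/fl replicate 3, with 0.340% the highest share of the untreated libraries, had the lowest Cxcr3 of its group. Untreated Tmem173iΔmye replicate 2, with the next highest share (0.18%), had the highest Cxcr3 of the untreated libraries, 4.19 FPKM. The part of these transcripts in the Cxcr3 values was not tested.

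The balance of the working ligands was compared as a ratio. Per length, Cxcl9 exceeded Cxcl10 in all 6 untreated libraries, and log2 of Cxcl10 over Cxcl9, with 0.1 FPKM added to each, was -0.40, -0.98 and -1.05 in untreated Tmem173fl/fl replicates 1 to 3 and -0.97, -0.90 and -0.73 in untreated Tmem173iΔmye replicates 1 to 3. In colitic Tmem173fl/fl replicates 1 to 3 it was 0.70, -0.030 and 0.64, above every untreated value. In colitic Tmem173iΔmye replicates 1, 2 and 5 it was -0.13, -1.60 and 0.18, so that replicate 2 lay below every untreated library and the other two above.
The mean log2 ratio went from -0.81 ± 0.36 to 0.44 ± 0.40 (SD, n = 3 each) in Tmem173fl/fl mice, a difference of 1.25. The groups did not overlap, and the two-sided exact permutation test gave p = 0.1, the smallest that 3 against 3 allows (adjusted p = 0.4 over 4 comparisons). In Tmem173iΔmye mice the mean went from -0.87 ± 0.12 to -0.52 ± 0.95 (n = 3 each), a difference of 0.35 (exact permutation p = 0.6, adjusted p = 0.8). Between colitic genotypes it differed by -0.95, Tmem173iΔmye being lower (exact permutation p = 0.2, adjusted p = 0.4), and by -0.056 between untreated genotypes (exact permutation p = 1.0). The difference between colitic genotypes was -0.41 without colitic Tmem173iΔmye replicate 2. The difference with DSS in Tmem173iΔmye mice was 0.89 without that library and 0.0043 without colitic replicate 5. The gene lengths set the level of this ratio, and counts without length gave a difference with DSS of 1.28 in Tmem173fl/fl mice.

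**Figure D2:**
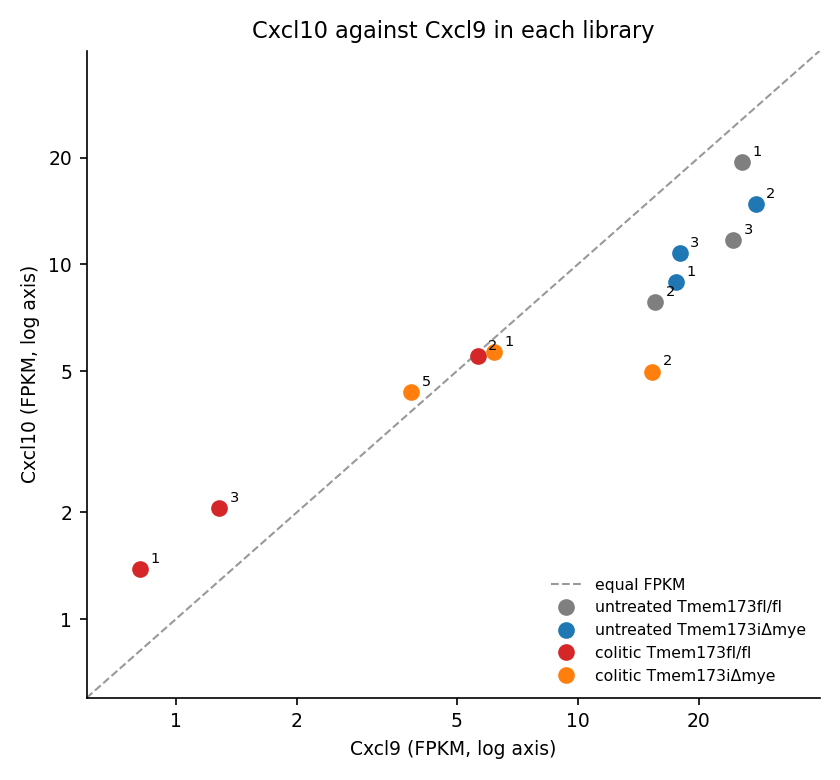
Cxcl10 against Cxcl9 in FPKM (both axes logarithmic), 1 numbered point per library, with a dashed line of equal FPKM. The 6 untreated libraries lie below the line, 2 of the 3 colitic Tmem173fl/fl libraries and 1 colitic Tmem173iΔmye library lie above it, and colitic Tmem173iΔmye replicate 2 lies far below it with 15.3 FPKM of Cxcl9.

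The comparison of genotypes asked how the axis differed between Tmem173iΔmye and Tmem173fl/fl mice. In untreated colon the fitted difference, Tmem173iΔmye over Tmem173fl/fl, was -0.053 ± 0.22 for Cxcl9, -0.17 ± 0.28 for Cxcl10, -0.13 ± 0.39 for Cxcl11 and 0.093 ± 0.33 for Cxcr3 (log2, SE, edgeR adjusted p = 1.0 for each). All 4 signs changed in at least 1 fit that left out a library. No gene was called in that comparison (0.0% of 24102), with 720 at an unadjusted p under 0.05, and DESeq2 and limma called 3 each.
In colitic colon Cxcl9 averaged 8.45 ± 6.06 FPKM in Tmem173iΔmye mice and 2.58 ± 2.66 FPKM in Tmem173fl/fl mice (SD, n = 3 each), and the ranges overlapped. The fitted difference was 1.71 ± 0.74 (log2, SE, edgeR adjusted p = 0.243, unadjusted p = 0.0481), and it did not pass. It was 3.05 without colitic Tmem173fl/fl replicate 2 (adjusted p = 0.0692) and 0.98 without colitic Tmem173iΔmye replicate 2 (adjusted p = 0.552), and it passed only with replicate number as a block (2.15, adjusted p = 0.0182), or at the unadjusted p, among the alternatives tried.
Cxcl10 averaged 5.002 ± 0.64 FPKM in colitic Tmem173iΔmye mice and 2.99 ± 2.22 FPKM in colitic Tmem173fl/fl mice, with a fitted difference of 0.76 ± 0.47 (edgeR adjusted p = 0.413), which was 1.58 without colitic Tmem173fl/fl replicate 2 and 0.43 without colitic Tmem173fl/fl replicate 1. For Cxcl11 it was 0.9997 ± 0.77 (edgeR adjusted p = 0.505), 2.47 without colitic Tmem173fl/fl replicate 2 and 0.45 without colitic Tmem173iΔmye replicate 2, and for Cxcr3 -0.31 ± 0.56 (edgeR adjusted p = 0.805). In this comparison 0.822% of tested genes were called higher in Tmem173iΔmye mice and 1.99% lower, and 0 of the 4 members were called. The means of Cxcl9 and Cxcl10 thus ran in the order untreated Tmem173fl/fl, untreated Tmem173iΔmye, colitic Tmem173iΔmye and colitic Tmem173fl/fl, and the first pair and the last pair in that order did not differ beyond their spread.

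Whether DSS acted differently by genotype was tested as an interaction over all 12 libraries. The difference of the DSS effects, Tmem173iΔmye minus Tmem173fl/fl, was 1.79 ± 0.83 for Cxcl9 (log2, SE, edgeR adjusted p = 0.277), 0.95 ± 0.61 for Cxcl10 (adjusted p = 0.442), 1.15 ± 0.91 for Cxcl11 (adjusted p = 0.545) and -0.39 ± 0.71 for Cxcr3 (adjusted p = 0.817). None of the 4 was called, against 2.55% of all tested genes. Without colitic Tmem173fl/fl replicate 2 the difference for Cxcl9 was 3.04 and was called (edgeR adjusted p = 0.0313), and without colitic Tmem173iΔmye replicate 2 it was 1.03 (adjusted p = 0.543). Over the 12 fits without 1 library the difference ran from 0.53 to 1.698 for Cxcl10, from 0.58 to 2.54 for Cxcl11 and from -1.2 to -0.014 for Cxcr3, the highest values of both ligands being those without colitic Tmem173fl/fl replicate 2.

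**Figure D3:**
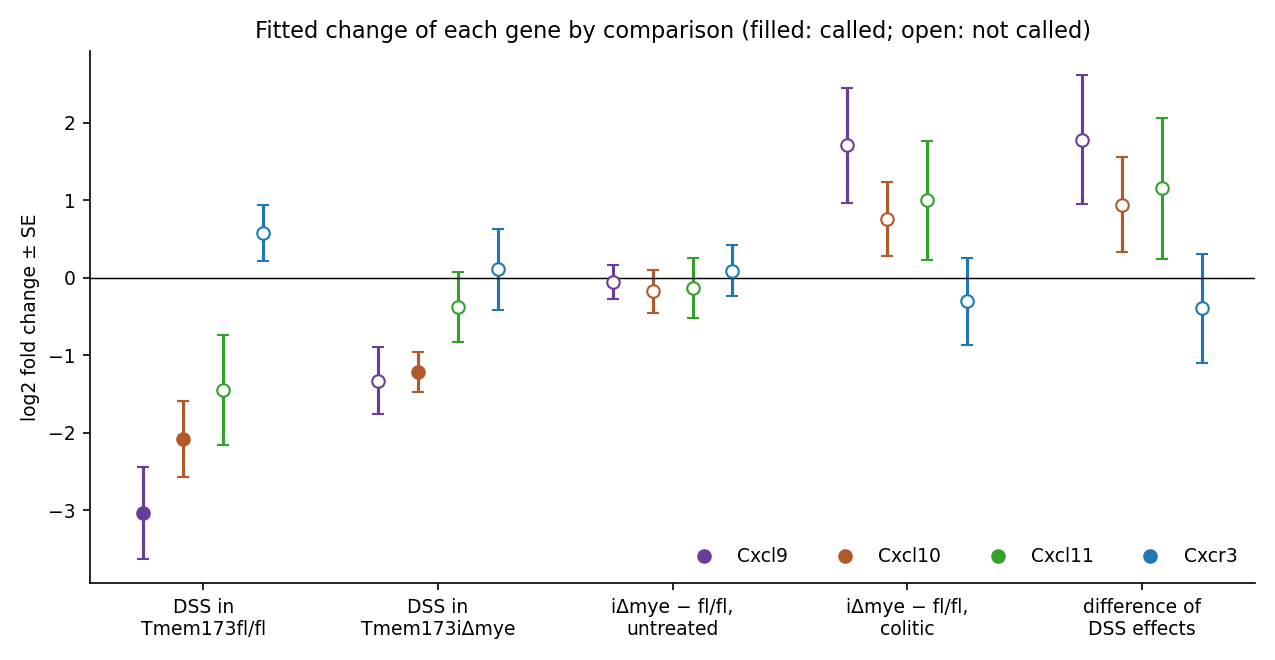
Fitted log2 fold change of each gene with its SE in 5 comparisons (edgeR), called changes filled. The 3 filled points are Cxcl9 and Cxcl10 with DSS in Tmem173fl/fl mice and Cxcl10 with DSS in Tmem173iΔmye mice, and the bars of the genotype comparisons are wide in colitic mice.

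Upstream of the ligands, the interferon genes fell in part. Of 15 tested genes of interferon ligands, receptors and signalling, DSS was followed in Tmem173fl/fl mice by 6 falls and 1 rise (median log2 change -0.25, against 0.029 over all tested genes). Ifng, the inducing cytokine, gave 31, 15 and 31 counts in untreated Tmem173fl/fl replicates 1 to 3 and 2, 13 and 0 counts in colitic Tmem173fl/fl replicates 1 to 3. Replicate 2 had both the most Cxcl9 and the most Ifng of the colitic Tmem173fl/fl libraries. The fitted fall of Ifng was -2.65 (edgeR adjusted p = 0.0261), and the call was lost without untreated replicate 1 (-2.41), untreated replicate 3 (-2.57) or colitic replicate 1 (-2.31). It was -4.67 without colitic replicate 2, where the call held. In Tmem173iΔmye mice Ifng gave 18, 47 and 18 counts untreated and 7, 28 and 3 counts in colitic replicates 1, 2 and 5 (log2 change -1.03, edgeR adjusted p = 0.561), and replicate 2 was again the highest for both genes. That change ran from -2.27 without colitic replicate 2 to -0.43 without untreated replicate 2. The part of Ifng in the Cxcl9 values was not tested.
The interferon-γ receptor chains did not pass, with log2 changes of 0.046 for Ifngr1 and -0.17 for Ifngr2. Of the type I receptor, Ifnar2 rose with a log2 change of 2.09 (adjusted p from edgeR 2.4e-05) and Ifnar1 had a change of 0.82. Among the transcription factors, Irf7 (-2.74), Stat2 (-2.04), Irf1 (-1.30) and Irf9 (-1.18) fell. In Tmem173iΔmye mice Irf7, which amplifies type I interferon, was the only one of the 15 called (log2 change -1.56, edgeR adjusted p = 0.011), a call lost with limma and without any 1 of the untreated libraries.

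Of 20 interferon-γ target genes, 16 were called lower in colitic than in untreated Tmem173fl/fl mice and 1 higher (median log2 change -1.73). Gbp2, a guanylate-binding protein of cell-autonomous defence, read 177.5, 98.5 and 178.8 FPKM in untreated Tmem173fl/fl replicates 1 to 3 and 20.5, 57.1 and 17.1 FPKM in colitic ones, a fall of 2.24 on the log2 scale. Its relative Gbp3 fell by 2.13. The 20 genes together summed to 830.2 to 1192 FPKM in untreated and 167.6 to 454.8 FPKM in colitic Tmem173fl/fl mice, with replicate 2 at the top of the colitic range. In Tmem173iΔmye mice 0 of the 20 fell and 1 rose (median -0.43), and 5 fell when colitic replicate 2, whose summed level was 1185 FPKM, was left out. The gene that rose in both genotypes was Nos2, inducible nitric oxide synthase, by 2.90 and 4.61 on the log2 scale, and it was also the only one of the 20 called between colitic genotypes, higher in Tmem173iΔmye mice by 1.59 (edgeR adjusted p = 0.0457), a call lost with limma and in every fit without 1 library other than the fit without colitic Tmem173iΔmye replicate 5. The median of the 20 genes between colitic genotypes was 1.19, against 0.024 over all genes. That count depended on the method, since 11 of the 20 were called higher with DESeq2, 12 with a replicate block and 0 with limma.

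Of 9 genes of the TNF and NF-κB pathway, 4 rose and 0 fell with DSS in Tmem173fl/fl mice, against 14.9% called higher and 7.61% lower of all tested genes. In those mice Tnfrsf1a, a TNF receptor, rose by 1.29 on the log2 scale, and the subunit genes Rela (0.86) and Relb (0.90) stayed under the fold limit. Tnf itself had a change of 0.86 (edgeR adjusted p = 0.0743) in Tmem173fl/fl mice and was the 1 gene of the 9 called in Tmem173iΔmye mice, where it rose by 1.62 (adjusted p = 0.036), a call lost with limma and in every fit without 1 library other than the fit without colitic replicate 5. These are transcript levels and do not measure NF-κB activity, whose part in the ligand values was not tested.

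Among 19 genes of T and NK cells, the cells that carry the receptor, 6 fell and 0 rose with DSS in Tmem173fl/fl mice (median log2 change -0.85). Those that fell were the granzymes Gzmb (-2.15) and Gzma (-1.74), the cytotoxic granule gene Nkg7 (-1.79), the chemokine Ccl5 (-1.03), the interleukin-12 receptor chain Il12rb2 (-1.5) and Ifng. The T cell receptor genes Cd3d (-0.21), Cd3e (-0.45) and Cd3g (-0.89) and the helper coreceptor Cd4 (0.35) did not pass, nor did the other 9 genes of the list, such as the perforin gene Prf1 (-1.34, edgeR adjusted p = 0.0515) and Tbx21 (-0.54), which encodes a Th1 transcription factor. In Tmem173iΔmye mice 0 of the 19 were called in either direction (median -0.56). In 1 fit of all 12 libraries 3 of the 19 fell in Tmem173fl/fl mice. The list summed to 138.5 to 156.1 FPKM in untreated and 47.6 to 85.9 FPKM in colitic Tmem173fl/fl mice, and to 83.9 to 235.2 FPKM and 24.1 to 124.5 FPKM in Tmem173iΔmye mice.

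Of 5 further genes, 4 for proteins that bind or trim the ligands and Pf4, 4 rose and 1 fell with DSS in Tmem173fl/fl mice, and 0 were called in Tmem173iΔmye mice. Ackr1, an atypical receptor of venules that binds many chemokines, rose by 2.19 on the log2 scale with DSS in Tmem173fl/fl mice, and Ackr3, which binds CXCL11 and CXCL12, rose by 1.75. Dpp4, the peptidase that clips the ligands and weakens them at CXCR3, fell by 1.48. Mmp9, a protease that degrades CXCL9 and cleaves CXCL10, rose by 6.20. Pf4, which encodes CXCL4, read 1.33 to 5.02 FPKM in untreated and 47.3 to 80.2 FPKM in colitic Tmem173fl/fl mice (log2 change 4.24, edgeR adjusted p = 3.3e-05), but 4.52 to 6.65 and 7.56 to 9.45 FPKM in Tmem173iΔmye mice (log2 change 0.68, adjusted p = 0.341). Between colitic genotypes Pf4 was lower in Tmem173iΔmye mice by a log2 change of -2.83 (adjusted p = 0.00766) and Ackr3 by -1.21 (adjusted p = 0.0284), the 2 of these 5 genes that were called there. The call of Pf4 held in every alternative, and that of Ackr3 was lost with limma, with a replicate block (-1.08) and in 4 of the 6 fits without 1 library.

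The other CXC ligands went the opposite way to Cxcl9 and Cxcl10. Of 11 tested, 10 rose and 0 fell with DSS in Tmem173fl/fl mice (median log2 change 4.50), and 5 rose and 0 fell in Tmem173iΔmye mice (median 2.77), with 3 called there by limma and in each fit without an untreated library of that genotype. The neutrophil attractant Cxcl1 read 0.106 to 0.164 FPKM in untreated Tmem173fl/fl mice and 52.4, 34.0 and 21.1 FPKM in colitic replicates 1 to 3. In Tmem173iΔmye mice it read 0.221 to 0.374 FPKM untreated and 6.41, 6.55 and 8.21 FPKM colitic. Cxcl5 rose by 7.59 and 5.59 on the log2 scale in the 2 genotypes and Cxcl2 by 7.80 and 5.28, from 1 to 11 counts of Cxcl5 and 0 to 6 counts of Cxcl2 in untreated Tmem173fl/fl libraries. Between colitic genotypes 5 of the 11 were called lower in Tmem173iΔmye mice (median -2.11), with Cxcl1 at -2.32 (edgeR adjusted p = 0.0167) and Cxcl2 at -2.11 (adjusted p = 0.0167), whereas Cxcl9 and Cxcl10 had fitted differences of 1.71 and 0.76 there without passing. Limma called 1 of the 11 lower, and leaving out single libraries gave 2 to 7. The genotype comparison and the DSS comparison in Tmem173fl/fl mice share the colitic Tmem173fl/fl libraries.

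**Figure D4:**
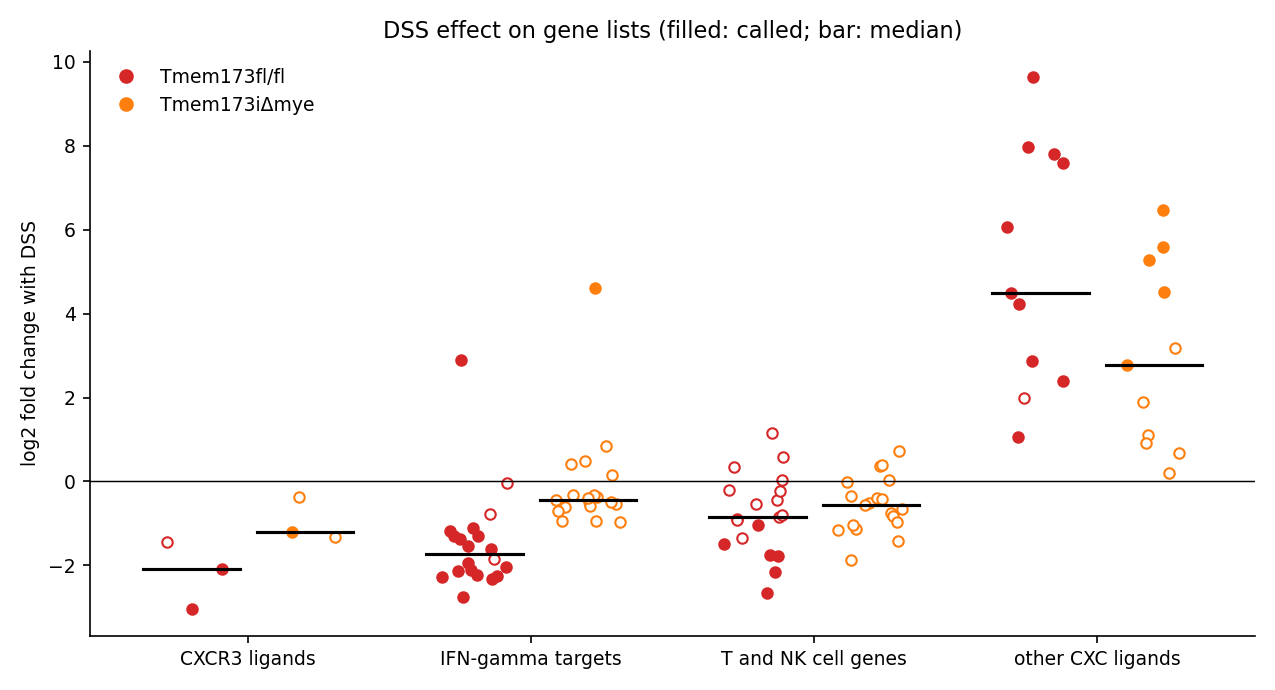
Fitted log2 fold change with DSS in each genotype for the 3 CXCR3 ligands and 3 gene lists, 1 point per tested gene, called genes filled, with the median as a bar. The CXCR3 ligands and the interferon-γ targets sit below 0 in Tmem173fl/fl mice, apart from Nos2, while the other CXC ligands sit above it in both genotypes.

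Of 8 genes beside the ligands, 2 rose and 0 fell with DSS in Tmem173fl/fl mice, and 0 were called in Tmem173iΔmye mice. Art3, whose start lies 3.7 kb from that of Cxcl9 and which spans Cxcl10 and Cxcl11, had a called log2 change of 1.19 (adjusted p from edgeR 0.00323), from 1.11 to 1.76 FPKM in untreated to 2.81 to 3.62 FPKM in colitic Tmem173fl/fl mice. Scarb2, 178.8 kb away, rose by 1.02 (adjusted p = 0.000639), just over the fold limit and under it with 3 other settings and in 3 of the 6 fits without 1 library. Sdad1 (0.22), Naaa (-0.44) and Nup54 (0.090), with starts up to 107.1 kb away, did not pass, and G3bp2, at -244.4 kb from the start of Cxcl9, had a log2 change of -0.9951 (edgeR adjusted p = 0.000369), just short of the fold limit and past it with RLE scaling (-1.01), DESeq2 (-1.01), 1 fit of all 12 libraries (-1.06) and in 4 of the 6 fits without 1 library.

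**Figure D5:**
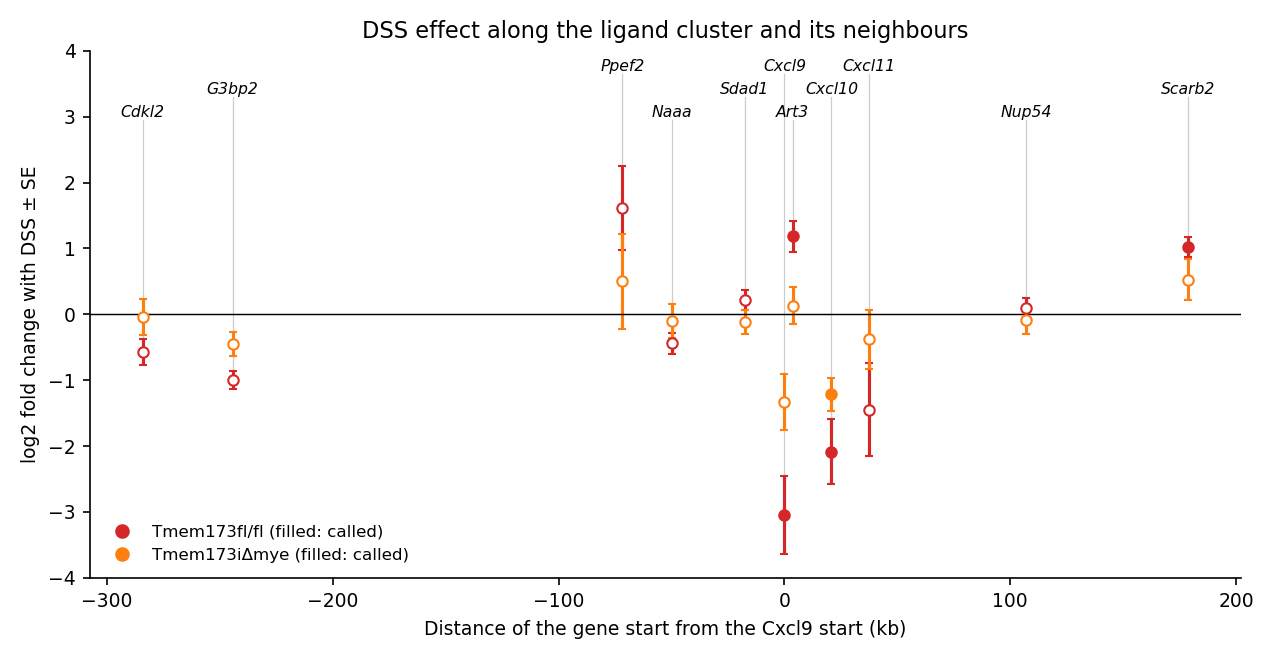
Fitted log2 fold change with DSS and its SE against the distance of each gene's start from the start of Cxcl9 (kb), called changes filled. Cxcl9 and Cxcl10 are below 0 in both genotypes, and Art3, which spans Cxcl10, is above it.

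Markers of other cell types moved with DSS as well. In Tmem173fl/fl mice 7 of 7 neutrophil genes, 6 of 6 endothelial, 5 of 5 fibroblast and 5 of 9 macrophage and monocyte genes rose, 5 of 8 epithelial genes fell and 1 rose, and of 7 dendritic cell genes 3 rose and 1 fell. In untreated Tmem173fl/fl mice the neutrophil list summed to 44.7 to 105.5 FPKM, nearly all of it from Ly6g (43.0 to 104.0 FPKM). Ly6g averaged 165.2 FPKM in colitic Tmem173fl/fl and 194.5 FPKM in colitic Tmem173iΔmye mice. The dendritic genes that rose were Batf3, Flt3 and Zbtb46, and the gene that fell was Xcr1 (-1.80), a chemokine receptor gene. Batf3 averaged 0.693 FPKM in untreated and 2.76 FPKM in colitic Tmem173fl/fl mice. Clec9a, which was not called, averaged 0.688 and 0.630 FPKM. In Tmem173iΔmye mice 5 neutrophil, 2 macrophage and monocyte, 1 fibroblast, 0 endothelial, 0 epithelial and 0 dendritic genes were called, all higher. Summed over each list in Tmem173fl/fl mice, macrophage and monocyte genes went from 69.7 to 107.0 FPKM untreated to 215.8 to 259.4 FPKM colitic, dendritic cell genes from 7.06 to 10.2 to 7.31 to 12.7 FPKM, endothelial genes from 13.3 to 15.6 to 61.2 to 80.6 FPKM and epithelial genes from 5890 to 8361 to 3615 to 5717 FPKM. Between colitic genotypes 4 of the 7 neutrophil genes (median log2 difference -2.72), 4 of 5 fibroblast (-1.69), 2 of 6 endothelial (-1.22) and 2 of 9 macrophage and monocyte genes (-0.54) were called lower in Tmem173iΔmye mice, as were the 5 other CXC ligands above, and 0 dendritic or epithelial genes were called. The part of these cell types in the values of the CXCR3 axis and of the other CXC ligands was not tested.

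The genes whose pattern over the 12 libraries was most like that of each member were found by Pearson's r of log2(FPKM + 0.1) among 14555 genes of at least 1 FPKM on average, with the group structure and each library's composition shared by all points. Nearest to Cxcl9 were Gm12250 (0.987), Irgm1 (0.986), Igtp (0.982), Iigp1 (0.977) and Gm5431 (0.977), of which Irgm1, Igtp and Iigp1 encode interferon-γ-inducible GTPases. Nearest to Cxcl10 were Rsad2 (0.970), Ddx60 (0.966), Oas3 (0.961), Slfn4 (0.961) and Trim30a (0.957), and Rsad2, Ddx60 and Oas3 are antiviral genes of the type I interferon response. The 2 sets of 5 shared no gene. Nearest to Cxcl11 were Gbp6 (0.938), Gbp2 (0.929), Gbp3 (0.921), Dtx3l (0.906) and Igtp (0.906). Nearest to Cxcr3 were Lat (0.980), Rinl (0.964), Sept1 (0.960), Sh2d2a (0.948) and Ptpn7 (0.941), and Lat is the adaptor that links the T cell receptor to its signalling. Between members r was 0.948 for Cxcl9 with Cxcl10, 0.893 for Cxcl9 with Cxcl11 and 0.852 for Cxcl10 with Cxcl11, but -0.082, 0.047 and 0.010 for Cxcr3 with Cxcl9, Cxcl10 and Cxcl11.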

How the data were processed

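RNA of whole colon was sequenced from polyA-selected libraries. According to the submitters' processing notes the tools were CASAVA 1.8, fastp, HISAT2 2.0.5, featureCounts 1.5.0-p3 and DESeq2 1.20.0, with the build GRCm38 (mm10); whether counting used strand is not given in the sources used here. The authors deposited 1 table with counts per gene (not normalized) and FPKM, which divide counts by gene length and library total. Its other deposited columns, the authors' comparisons (normalized signal means, log2 fold changes and p-values), were not used. Of 54532 genes, 24102 with at least 0.1 FPKM in 3 of the 12 libraries were tested on the deposited counts.

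Fits used edgeR 4.0.16 (TMM scaling, quasi-likelihood test) over the groups compared, with Benjamini-Hochberg adjustment over all genes tested, in R 4.3.3. SE is the log2 fold change over the square root of F. The ratio of Cxcl10 to Cxcl9 was compared by exact two-sided permutation tests (SciPy 1.17.1). Alternatives were RLE scaling, no FPKM filter, DESeq2 1.42.0, limma 3.58.1 on log2(FPKM + 0.1), 1 fit of all libraries, unadjusted p, a replicate block, leaving out each library and, chosen after seeing the data, only the libraries with Ddx3y reads. The fits were tested on simulated data.

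The 4 members and the 14 gene lists were chosen with earlier results of these data known. Named genes were the members, the 5 genes most like each member, and the first 4 genes of each list with a mean of at least 1 FPKM, of which 1 gene is not reported here. Ifng, Stat2, Irf7, Irf9, Nos2, Il12rb2, Gzma, Gzmb, Nkg7, Ccl5, Mmp9, Cxcl14, Scarb2, G3bp2, Mrc1, Erg, Vwf, Ly6g and Xcr1 were named after their values were seen. Libraries are separate mice, so p-values measure the spread between mice. Low counts limit Cxcl11 and Ifng among others, and counting intervals cover counting error only.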

Additional observations from a re-analysis of the deposited data

Results flagged for a closer look

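Genes of the lists for which the effect of DSS itself differed between genotypes in the interaction test (edgeR, adjusted over all genes tested, 3 mice per group) are given here; all were chosen by that call and none is Cxcl9, Cxcl10, Cxcl11 or Cxcr3. A negative value means a smaller rise or a larger fall in Tmem173iΔmye mice.

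Among chemokines, the difference of DSS effects was -3.50 (log2, adjusted p = 0.0059) for Pf4, -3.38 (adjusted p = 0.00838) for Cxcl1 and -2.61 (adjusted p = 0.00617) for Cxcl14, the 3 of 11 other CXC ligands that differed. For the integrin gene Itgam of myeloid cells it was -1.31 (adjusted p = 0.0385) and for the macrophage mannose receptor gene Mrc1 -2.08 (adjusted p = 0.0059). Among endothelial genes it was -1.70 for the cadherin Cdh5 (adjusted p = 0.0186), -1.504 for the transcription factor Erg (adjusted p = 0.0362) and -1.56 for Vwf, von Willebrand factor (adjusted p = 0.0396). Among fibroblast genes it was -1.72 for Col1a1 (adjusted p = 0.0366), -1.78 for Col3a1 (adjusted p = 0.00832) and -1.91 for Dcn (adjusted p = 0.0063). For the epithelial cadherin Cdh1 it was 1.204 (adjusted p = 0.0468). The values for Pf4, Cxcl14, Mrc1 and Dcn stayed called in every alternative run, those for Cxcl1 and Col3a1 in every one but the libraries with Ddx3y reads alone (-3.64 and -1.79), and those for Itgam, Cdh5, Erg, Vwf, Col1a1 and Cdh1 lost the call in that and at least 1 other alternative.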

How the results depend on the processing

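The falls of Cxcl9 and Cxcl10 with DSS in Tmem173fl/fl mice kept their direction and call in all 14 alternatives, and the rise of the log2 ratio of Cxcl10 to Cxcl9 there kept its direction (1.03 to 1.48). Cxcl9 with DSS in Tmem173iΔmye mice (-1.33, not called) was called with no FPKM filter (-1.34), DESeq2 (-1.32), an unadjusted p of at most 0.05 (-1.33) and the replicate block (-1.20), and ran from -2.07 to -0.97 without single libraries. Cxcl10 there was not called with limma (-1.16) or 1 fit of all libraries (-1.21) or in the libraries with Ddx3y reads alone (-1.15), and ran from -1.36 to -0.98 without single libraries. Cxcr3 there was -0.013 with limma and -0.70 to 0.49 without single libraries. Cxcl9 between colitic genotypes passed at an unadjusted p of at most 0.05 (1.71) and with the replicate block (2.15). Without single libraries Cxcl11 with DSS in Tmem173fl/fl mice ran from -2.93 to -1.03, Cxcr3 between colitic genotypes from -1.14 to 0.14, and the interaction of Cxcl9 from 1.03 to 3.04. Between untreated genotypes the ranges without single libraries were -0.30 to 0.080 for Cxcl9, -0.43 to 0.24 for Cxcl10, -0.47 to 0.23 for Cxcl11, -0.28 to 0.38 for Cxcr3 and -0.18 to 0.15 for the log2 ratio, and Cxcl9 was 0.14 in the libraries with Ddx3y reads alone. The cause of these shifts was not tested.

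Counts of called genes moved more. With DSS in Tmem173iΔmye mice (501) they were 981 with no FPKM filter, 1137 with DESeq2, 41 with limma, 981 with 1 fit of all libraries, 2193 at an unadjusted p, 1369 with the replicate block and 51 to 1469 without single libraries. Between untreated genotypes (0) they were 68, 3, 3, 328 and 94 with no filter, DESeq2, limma, the unadjusted p and the replicate block, and 0 to 6 without single libraries. Between colitic genotypes (678) they were 1220 with no filter, 1619 with DESeq2, 71 with limma, 1492 with 1 fit, 2505 at an unadjusted p and 27 to 1593 without single libraries. For the interaction (614) they were 1228, 1364, 368 and 2747 with no filter, DESeq2, limma and the unadjusted p, 201 in the libraries with Ddx3y reads alone, and 267 to 1728 without single libraries. Libraries that share a replicate number correlated at -0.080 to 0.11 in their deviations from group means (15 pairs, 1 above 0.1), and 3 of 12 libraries correlated best with one of their own number, so that the replicate block (849 genes between colitic genotypes) pairs mice only by number. Among genes named beside the members, with DSS in Tmem173fl/fl mice Ifngr1 was -0.022 with 1 fit and -0.031 to 0.10 without single libraries, Cd4 was -0.27 to 0.65 and Cd3d -0.62 to 0.014.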
